A study of Mus musculus with 38 samples.

Results

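The 10 genes described here belong to the NF-kB pathway and its inflammatory cytokine output: the cytokine genes Tnf, Il1b, Il6, Il1rn, Csf1 and Il34, the transcription factor genes Nfkb2 and Relb, and the inhibitor genes Nfkbia and Tnfaip3. They were chosen by symbol, and all 10 were found among the 55487 genes of the count table. Their RNA-Seq read counts were followed through 38 libraries in 10 groups of 3 mouse experiments that asked how the hormone FGF23 acts on the healthy and the diseased kidney. The first experiment used kidneys of 14 male C57BL/6JRj mice, aged 10 weeks at the end. Diseased mice had a nephritis directed at the glomerular basement membrane (anti-GBM disease), made by immunizing them with sheep IgG in Freund's complete adjuvant before they were given nephrotoxic serum, and healthy controls received PBS. Recombinant human FGF23 (6 daily intravenous injections of 1 µg) or its PBS-BSA vehicle gave 4 healthy vehicle, 3 healthy FGF23, 4 anti-GBM vehicle and 3 anti-GBM FGF23 mice. These group sizes are those of the labels, whereas figure legends of the study give 3 for anti-GBM groups and 4 for healthy groups. The second experiment used kidneys of 16 female BALB/c mice, also aged 10 weeks, with 4 mice in each of the groups healthy vehicle, healthy FGF23, Adriamycin vehicle and Adriamycin FGF23. Adriamycin, a drug that injures podocytes, was injected once intravenously, controls received saline, and FGF23 was a single injection of 1 µg, 24 h before the end. The third experiment used precision-cut kidney slices (PCKS) in 8 cultures, from male DBA/2J mice aged 23 weeks that had been fed adenine, 4 with 200 ng/mL FGF23 and 4 with vehicle. Per the labels the slices were treated for 1 h, whereas the text of the study gives 24 h. No slices of disease-free kidneys were made, so the slices have no healthy counterpart.

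NF-kB is a family of dimeric transcription factors that are held in the cytoplasm until signals from TNF or IL-1 receptors, or from Toll-like receptors, free them. In the canonical pathway IkB kinase marks IkBα, the product of Nfkbia, for degradation, and the freed dimers switch on cytokines, chemokines and adhesion molecules. The same dimers also switch on their own inhibitors, Nfkbia and Tnfaip3 (A20, a ubiquitin-editing enzyme), which closes a feedback loop. In the non-canonical pathway the p100 product of Nfkb2 is cut to p52, the partner of RelB. In the kidney, tubule cells as well as infiltrating leukocytes use the pathway. CSF-1 and IL-34 are the ligands of the CSF-1 receptor on which macrophages depend, and IL-1 receptor antagonist, the product of Il1rn, competes with IL-1β for its receptor.

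Promoter sequence in RefSeq (GRCm38.p6) was at hand for 8 of the 10 genes, in 13 windows of 250 bases that end at a transcription start. The sequences below are shown because NF-kB dimers bind DNA at the kappa-B consensus, which was searched on both strands and is given in capitals. It was found in 7 of the 13 windows, those of 5 genes (Csf1, Il6, Nfkbia, Nfkb2 and Tnfaip3), against 7.25% of the 32851 mouse windows of the same length. Windows of the same gene are not independent, and Nfkb2 has matches in more than 1 window. Of the 250 bases, 250 and 234 lie in annotated exons of the gene in 2 matching windows of Nfkb2. In the matching window of Tnfaip3 110 do. Nfkbia, Csf1 and Il6 have 1 match each in the first window, whose first base lies at -29, -154 and -44 from the start. Il1b and Il1rn, shown for contrast, and Tnf, not shown, have none, which says only that these letters are not in these windows. The Il1rn window is shown for the 243 bases before its first annotated exon.
Nfkbia chr12:55492648-55492897, minus strand: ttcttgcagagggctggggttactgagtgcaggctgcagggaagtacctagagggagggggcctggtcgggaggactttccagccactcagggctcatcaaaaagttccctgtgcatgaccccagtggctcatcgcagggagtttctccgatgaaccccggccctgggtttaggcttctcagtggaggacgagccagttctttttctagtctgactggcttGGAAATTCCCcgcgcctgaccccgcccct
Csf1 chr3:107760470-107760719, minus strand: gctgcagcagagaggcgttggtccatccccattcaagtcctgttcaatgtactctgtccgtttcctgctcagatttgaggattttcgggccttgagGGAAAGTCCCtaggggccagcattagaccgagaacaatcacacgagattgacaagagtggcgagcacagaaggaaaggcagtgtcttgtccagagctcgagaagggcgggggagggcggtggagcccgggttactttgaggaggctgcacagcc
Il6 chr5:30012864-30013113, plus strand: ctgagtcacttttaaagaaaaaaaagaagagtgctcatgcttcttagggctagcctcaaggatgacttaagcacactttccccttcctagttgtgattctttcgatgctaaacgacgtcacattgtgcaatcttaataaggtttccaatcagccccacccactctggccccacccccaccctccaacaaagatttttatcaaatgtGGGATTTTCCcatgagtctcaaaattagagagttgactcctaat
Il1b chr2:129371140-129371389, minus strand: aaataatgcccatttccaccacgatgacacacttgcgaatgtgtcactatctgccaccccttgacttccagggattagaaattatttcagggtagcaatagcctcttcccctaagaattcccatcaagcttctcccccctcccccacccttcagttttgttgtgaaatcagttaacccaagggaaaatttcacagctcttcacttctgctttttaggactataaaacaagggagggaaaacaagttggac
Il1rn chr2:24336610-24336852, plus strand: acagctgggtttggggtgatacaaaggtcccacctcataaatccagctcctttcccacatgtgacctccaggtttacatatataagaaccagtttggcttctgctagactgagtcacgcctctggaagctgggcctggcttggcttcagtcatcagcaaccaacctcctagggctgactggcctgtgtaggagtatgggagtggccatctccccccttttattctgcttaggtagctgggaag

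In GRCm38 the cytokine genes lie at chr17:35199381-35202007 (Tnf), chr2:129364570-129371139 (Il1b), chr5:30013114-30019981 (Il6), chr2:24336853-24351494 (Il1rn), chr3:107741048-107760469 (Csf1) and chr8:110741829-110805924 (Il34). The regulators lie at chr19:46304320-46312385 (Nfkb2), chr7:19606217-19629438 (Relb), chr12:55489410-55492647 (Nfkbia) and chr10:19000910-19015657 (Tnfaip3). Counts are over all exons of a gene.

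Total counts per library were 13704248 to 23630210 for anti-GBM and its controls, 15665050 to 27583911 for Adriamycin and its controls, and 11186925 to 16254987 for slices. Libraries are named after the headers of the count table (NTS for the anti-GBM, Ad for the Adriamycin experiment), which give the experiment but not the group. Their groups were read from the column headings of the study's own result tables. The header of 1 of the 3 anti-GBM FGF23 libraries reads 14_NTS4, and it was taken as NTS14 by its leading number and by those headings, although NTS4 is also a healthy vehicle library. All 12 markers of kidney tubule, podocyte and vessel cells were above 3 counts in every library. Their summed level was 11269 to 17474 CPM in the 30 kidney libraries and 2791 to 8183 CPM in the 8 slice libraries. CPM are counts per 1000000 counts of the library after TMM scaling within an experiment, so values set side by side across experiments were normalized separately and were not tested.

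Per length of exon, Nfkbia, the IkBα gene, had the highest mean level of the 10 genes in all 10 groups, from 14.7 ± 3.28 CPM per kb (SD, n = 4) in healthy vehicle kidneys of the anti-GBM experiment to 258 ± 36.8 CPM per kb (SD, n = 4) in FGF23-treated slices. In those healthy vehicle kidneys Il34 followed at 9.80 ± 4.299 CPM per kb, with a range that overlapped that of Nfkbia. Nfkb2 (3.84 CPM per kb), Csf1 (2.67), Relb (1.46), Tnfaip3 (1.09) and Il1b (0.670) came next, each with a range that did not overlap that of the next gene. Tnf, Il1rn and Il6 were lowest, at 0.127, 0.0440 and 0 CPM per kb, with overlapping ranges. In the healthy vehicle kidneys of the Adriamycin experiment Nfkb2 (5.91 CPM per kb) stood above Il34 (4.84 CPM per kb), and the order was otherwise the same. The plot of levels by library shows the 10 genes in all groups.

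**Figure D1:**
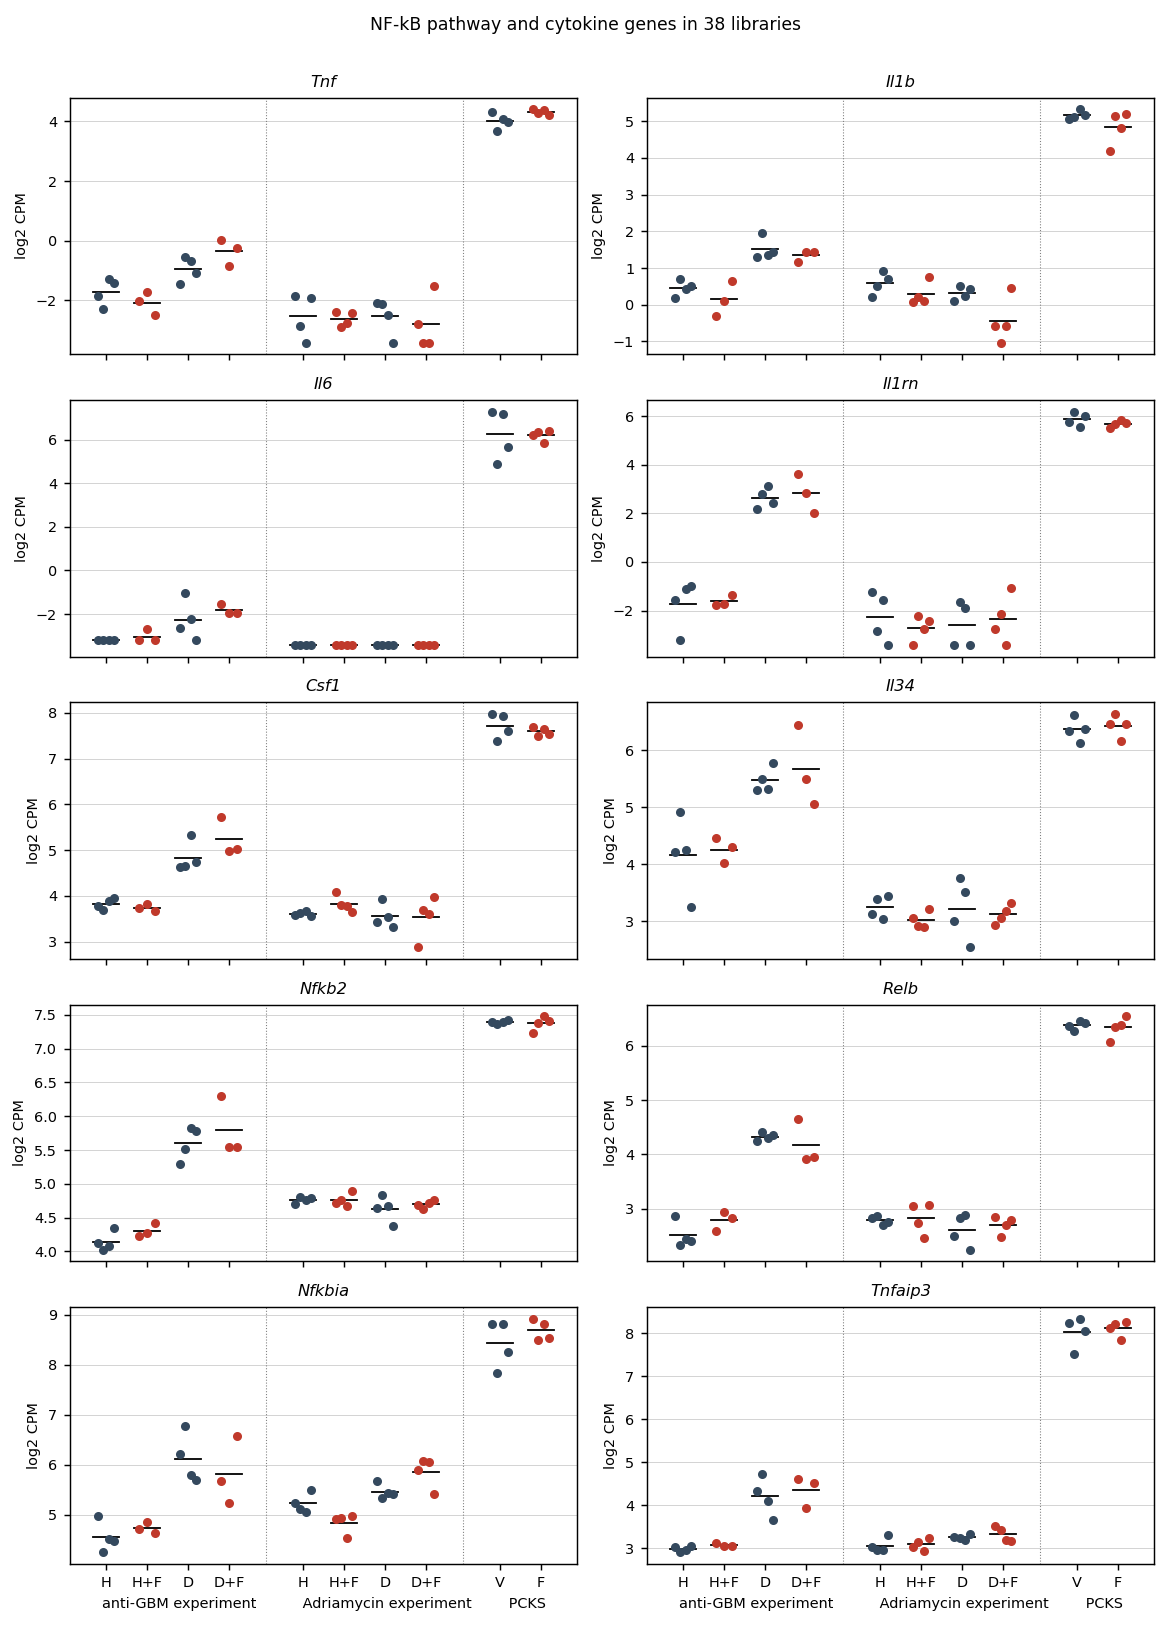
Level of each gene as log2 CPM (prior count 2) in the 38 libraries, with a separate vertical scale for each gene. Each point is a library and each bar a group mean; H is healthy, D diseased, F FGF23 and V vehicle, FGF23 groups are red, and dotted lines part the experiments. The 4 anti-GBM vehicle kidneys lie above the 4 healthy vehicle kidneys for 8 genes. All genes but Il34 are higher in every slice culture than in any kidney, and how often this holds among all genes was not computed.

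In anti-GBM disease the cytokine, transcription factor and inhibitor genes were higher together. The diseased mice had received adjuvant with sheep IgG as well as nephrotoxic serum, and controls PBS. Immunization and nephritis thus cannot be told apart in the disease comparisons of this experiment. Among vehicle-treated mice 8 of the 9 genes tested were higher in anti-GBM than in healthy kidneys (edgeR's quasi-likelihood test, Benjamini-Hochberg adjusted p under 0.05). The share of all 15859 genes tested that was higher by the same rule was 19.4%, while 20.4% were lower and 39.8% were called in all. The median log2 fold change was 1.29 for the 9 genes and -0.01 for all genes. The same 8 genes did not overlap between the groups, with every anti-GBM vehicle library above every healthy vehicle library. This held for 10.4% of all genes with a count (10.7% lay all below). Among the 9 genes tested, Il1rn and Tnf were at 0 to 7 counts in each healthy library. They passed the count filter only through anti-GBM libraries, so that a rise of both was favored by the filter.

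Il1rn had the largest fold change of the 9 genes. It was at 0.226, 0, 0.349 and 0.398 CPM in the healthy vehicle kidneys and at 4.40, 6.95, 8.63 and 5.33 CPM in the anti-GBM vehicle kidneys. The lowest anti-GBM library thus stood far above the highest healthy one, which rests on at most 7 counts. Its log2 fold change was 4.73 (SE 0.52, 95% interval 3.62 to 5.83, adjusted p = 2.08e-05 by edgeR). Il1b, the cytokine that IL-1 receptor antagonist opposes, was at 1.02, 1.52, 1.25 and 1.33 CPM in healthy and 2.35, 3.73, 2.47 and 2.59 CPM in anti-GBM vehicle kidneys. The groups did not overlap, and the log2 fold change was 1.11 (SE 0.24, adjusted p = 0.00229 by edgeR). Counted against each other without regard to length, Il1rn had 0 to 0.30 reads per Il1b read in the healthy vehicle kidneys and 1.86 to 3.50 in the anti-GBM vehicle kidneys.

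Tnf and Il6 were close to the limit of detection in these kidneys. Tnf was counted 3, 2, 6 and 4 times in the healthy vehicle and 5, 9, 10 and 5 times in the anti-GBM vehicle libraries, so that the groups overlapped. Its log2 fold change of 1.03 (SE 0.43) did not pass the cutoff (adjusted p = 0.072 by edgeR), although it passed when library NTS3 or NTS5 was left out (adjusted p = 0.0486 and 0.0362). Il6 did not pass the filter on low counts. It was at 0 counts in all 4 healthy vehicle libraries, which allows up to 3 counts in each, and at 1, 6, 2 and 0 counts in the anti-GBM vehicle libraries. With no filter on low counts Il6 passed in vehicle-treated mice (adjusted p = 0.031 by edgeR) and did not in FGF23-treated mice (adjusted p = 0.13 by edgeR); no fold is given at these counts.

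Both ligands of the CSF-1 receptor rose. Csf1 was at 13.5, 12.8, 14.8 and 15.4 CPM in healthy vehicle and at 24.6, 25.2, 40.02 and 26.6 CPM in anti-GBM vehicle kidneys, without overlap, and library NTS7 was well above the other 3. The log2 fold change was 1.05 (SE 0.18, adjusted p = 0.000574 by edgeR). Il34 was at 18.4, 29.98, 18.9 and 9.41 CPM in healthy vehicle and at 39.5, 45.2, 40.1 and 55.0 CPM in anti-GBM vehicle kidneys. The healthy libraries were widely spread but still below all anti-GBM libraries, with a log2 fold change of 1.21 (SE 0.31, adjusted p = 0.00707 by edgeR).

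The 2 transcription factor genes of the non-canonical pathway rose with little spread. Relb was at 7.19, 4.94, 5.34 and 5.17 CPM in healthy vehicle and at 18.8, 21.1, 19.7 and 20.4 CPM in anti-GBM vehicle kidneys. The anti-GBM libraries lay close together, and the log2 fold change was 1.82 (SE 0.17, adjusted p = 7.18e-06 by edgeR). Nfkb2 was at 17.3, 16.2, 16.7 and 20.2 CPM in healthy vehicle and at 39.2, 45.8, 56.8 and 54.8 CPM in anti-GBM vehicle kidneys. Its log2 fold change was 1.48 (SE 0.17, adjusted p = 2.56e-05 by edgeR).

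The feedback inhibitors rose as well, with more spread among diseased mice. Nfkbia was at 31.2, 18.96, 22.6 and 21.9 CPM in healthy vehicle and at 74.0, 108.7, 55.3 and 51.6 CPM in anti-GBM vehicle kidneys. The highest anti-GBM library, NTS6, was also the highest for Tnfaip3, and the log2 fold change of Nfkbia was 1.61 (SE 0.28, adjusted p = 0.000609 by edgeR). Tnfaip3 was at 8.04, 7.46, 7.64 and 8.22 CPM in healthy vehicle and at 19.99, 26.6, 17.2 and 12.6 CPM in anti-GBM vehicle kidneys, a log2 fold change of 1.29 (SE 0.19, adjusted p = 0.000229 by edgeR). The groups did not overlap for either gene.

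Among FGF23-treated mice, all 9 genes tested were higher in anti-GBM than in healthy kidneys by the same test, against 14.5% of all genes (12.7% were lower and 27.2% were called in all). Their median log2 fold change was 1.53 against -0.02 for all genes. Il1rn and Tnf, at 1 to 4 counts in the healthy FGF23 libraries, are among the 9 only through anti-GBM libraries. All 9 were higher without overlap between these 2 groups of 3 libraries, which held for 15% of all genes with a count (14.3% lay all below). Il6 is left out of this count. It was at 0, 1 and 0 counts in the healthy and 5, 3 and 3 counts in the anti-GBM FGF23 libraries, at or near the floor of 3 counts. Il1rn again had the largest fold change, from 0.188, 0.192 and 0.279 CPM to 12.3, 7.06 and 3.91 CPM (log2 fold change 5.14, SE 0.60, adjusted p = 4.7e-05 by edgeR). Tnf, counted 3, 4 and 1 times in healthy and 19, 9 and 15 times in anti-GBM kidneys, passed here with a log2 fold change of 2.27 (SE 0.49, adjusted p = 0.0037 by edgeR). The other 7 genes had log2 fold changes of 1.20 to 1.55.
The smallest of these was that of Nfkbia, at 26.2, 28.7 and 24.6 CPM in healthy and 50.7, 37.2 and 94.8 CPM in anti-GBM FGF23 kidneys. It was 1.20 (SE 0.32, adjusted p = 0.0133 by edgeR), and without library NTS16 it was 0.73 and no longer passed (adjusted p = 0.0759). Library NTS13 was the highest of the 3 anti-GBM FGF23 libraries for Tnf, Il6, Il1rn, Csf1, Il34, Nfkb2, Relb and Tnfaip3, and NTS16 for Il1b and Nfkbia. Without NTS13 the log2 fold change of Il34 went from 1.53 to 1.03, and all 9 genes still passed. Results of the 4 disease comparisons are drawn together in the plot of disease effects.

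**Figure D2:**
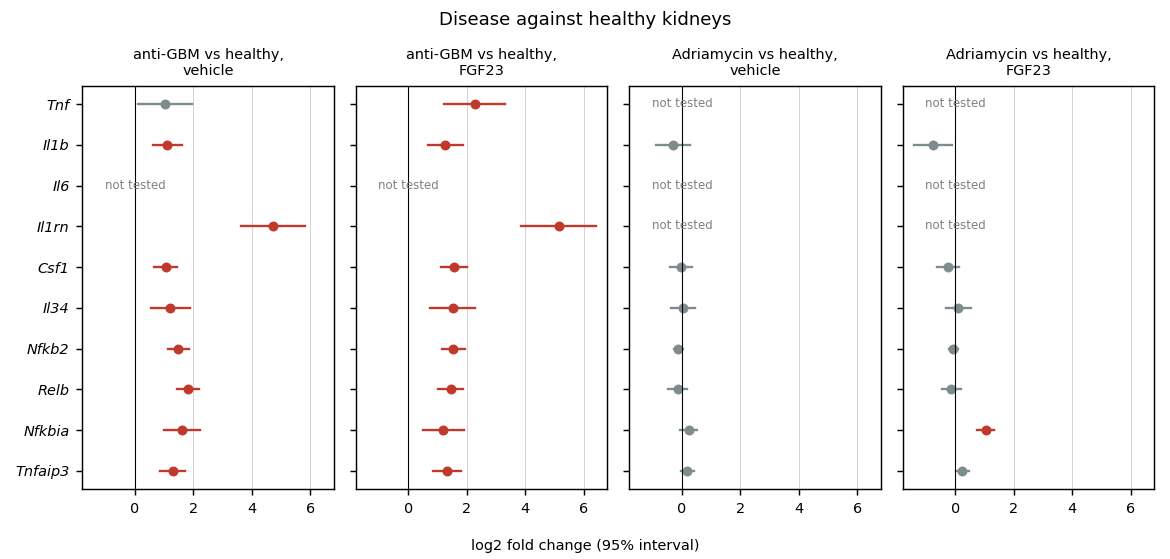
Log2 fold change (point) and 95% interval (line) of each gene for disease against healthy kidneys, with vehicle or with FGF23, in the anti-GBM and the Adriamycin experiment. Red marks an adjusted p under 0.05 (edgeR) and grey none; "not tested" marks genes under the filter on low counts. In the anti-GBM experiment 8 and then 9 genes are red, and in the Adriamycin experiment only Nfkbia with FGF23, at 1.04, is.

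The rest of the pathway was read from lists that partly share genes with the 10. Among vehicle-treated mice all 5 NF-kB subunit genes were higher in anti-GBM kidneys, with a median log2 fold change of 0.93; besides Nfkb2 and Relb these include Rela, the main transactivating subunit, at 0.77 (SE 0.09, adjusted p = 4.54e-05 by edgeR). Of 15 inhibitors and feedback regulators 12 rose, 1 fell and 2 did not pass. Their median log2 fold change was 1.29, and Bcl3 and Nfkbiz, atypical nuclear IkB proteins, rose by 1.99 and 1.48, and Birc3, a ubiquitin ligase, by 1.74. Of 23 kinases and adaptors of the pathway 5 rose, 6 fell and 12 did not pass, with a median of 0.05, against 19.4% of all genes that rose and 20.4% that fell. The 3 with the smallest p were Irak3, a brake on Toll-like receptor signalling, at 1.24, the ubiquitin ligase Birc2 at 0.63 and the adaptor Myd88 at 0.58.

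Of 9 receptor genes tested, 6 rose and none fell (median log2 fold change 0.82), among them the TNF receptors Tnfrsf1b at 1.33 and Tnfrsf1a at 0.84, and Sdc1, a syndecan reported to bind IL-34, at 0.95. Of 10 further inflammatory cytokines tested, out of 24 in the table, 5 rose and 5 did not pass. Lif and Clcf1 of the IL-6 family rose by 3.66 and 2.16 on the log2 scale and the alarmin Il33 by 1.49. Of 25 other NF-kB target genes tested, out of 28 in the table, 20 rose, 1 fell and 4 did not pass, with a median of 1.66. The neutrophil chemokines Cxcl2 and Cxcl1 rose by 5.56 and 5.42 and the adhesion molecule Vcam1 by 3.43. With FGF23 in both arms the counts were 5 of 5 subunits, 12 of 15 inhibitors, 5 of 23 kinases and adaptors (3 lower), 5 of 9 receptors, 5 of 10 cytokines and 19 of 25 targets (1 lower). By the same rule 14.5% of all genes were higher and 12.7% lower, and the kinases and adaptors were near these shares. In both comparisons a rise was favored by the filter for any listed gene that passed it only through anti-GBM libraries. How many of the listed genes did so was not counted.

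Most markers of macrophages and neutrophils rose as well, where 19.4% of all genes rose and 20.4% fell among vehicle-treated mice. Of 13 macrophage and monocyte markers 11 rose in anti-GBM vehicle kidneys, among them Itgam by 2.93 and C1qb by 2.10 on the log2 scale, and their summed level was 163.9 to 165.2 CPM in healthy and 308.7 to 618 CPM in anti-GBM vehicle kidneys. All 6 neutrophil markers tested of 8 rose, S100a8 by 4.39. The summed level was 1.24 to 2.38 CPM in healthy and 9.72 to 20.96 CPM in anti-GBM vehicle kidneys. Ly6g was at 0 in all healthy and in 2 of the 4 anti-GBM vehicle libraries. In the healthy vehicle libraries S100a8 was at 0 to 6 and S100a9 at 4 to 8 counts. Only Csf3r, at 14 to 22 counts there, could pass the count filter without the anti-GBM libraries. A rise of the other neutrophil markers was thus favored by the filter. Of 8 T and NK cell markers tested 2 rose, Cd4 and Cd3e, which is near the share of all genes, with sums of 6.17 to 9.83 CPM and 8.49 to 14.2 CPM. Of 4 B and plasma cell markers tested none rose, with sums of 3.99 to 4.74 CPM and 2.38 to 5.66 CPM. Of 12 kidney markers 3 fell, near the share of all genes, and 1 rose, Pdgfrb of pericytes and mesangial cells by 0.52. The sum of the 12 was 15987 to 17474 CPM in healthy and 11269 to 13890 CPM in anti-GBM vehicle kidneys. With FGF23 in both arms 12 of 13 macrophage and monocyte markers, 3 of 6 neutrophil markers, 2 of 8 T and NK cell markers and 1 of 4 B and plasma cell markers (2 fell) rose. Among all genes 14.5% rose and 12.7% fell there. The part of these cells in the results was not tested. The kidney RNA came from a fragment of the pars intermedia of each mouse, not from whole kidneys. In such bulk RNA, more cells of a type and more RNA per cell cannot be told apart.

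**Figure D3:**
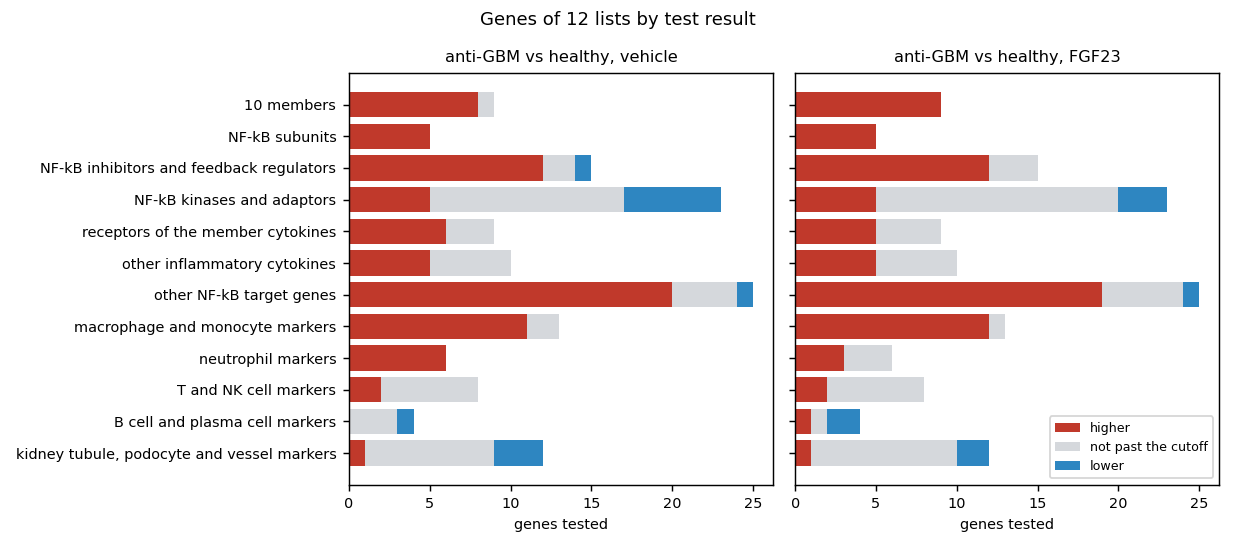
Number of genes tested in each of 12 lists that were higher (red), lower (blue) or not past an adjusted p of 0.05 (grey) in anti-GBM against healthy kidneys, with vehicle (left) and with FGF23 (right). Some lists share genes. Red fills the bar of the 5 subunits in both panels, while the 23 kinases and adaptors have 5 red genes in both.

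In Adriamycin nephropathy fewer of these genes could be tested and 1 was called. Among vehicle-treated mice none of the 7 genes tested passed edgeR's test, and DESeq2 called none. With edgeR 0.331% of all 16020 genes were called, 0.119% higher and 0.212% lower. None of the 7 had an unadjusted p under 0.05 (edgeR), against 1325 of all genes. Log2 fold changes ran from -0.30 (Il1b) to 0.23 (Nfkbia), with a median of -0.04 against -0.004 for all genes. The 95% intervals bound the change of Nfkb2 to between -0.28 and 0.04, of Relb to between -0.47 and 0.17, of Csf1 to between -0.41 and 0.34 and of Il34 to between -0.38 and 0.44. Il6 was at 0 counts in all 16 libraries of the experiment, where 3 counts are 0.109 to 0.192 CPM. Tnf was counted 0 to 5 times and Il1rn 0 to 9 times per library, so neither could be compared at this depth.

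Nfkbia was the exception among FGF23-treated mice. It was at 30.04, 30.6, 22.9 and 31.04 CPM in healthy FGF23 and at 59.4, 67.5, 65.8 and 42.7 CPM in Adriamycin FGF23 kidneys. All 4 Adriamycin libraries lay above all 4 healthy ones, the lowest being Ad16, which held for 1.91% of all genes with a count. The log2 fold change was 1.04 (SE 0.14, 95% interval 0.75 to 1.33, adjusted p = 0.00258 by edgeR), and it was the only member called of the 7, where 0.462% of all genes were called higher, 0.237% lower and 0.699% in all. Leaving out any 1 of the 16 libraries gave 0.95 to 1.17, always past the cutoff. Without FGF23 the libraries were at 37.3, 34.5, 33.1 and 45.0 CPM in healthy and 50.9, 39.9, 43.0 and 42.5 CPM in Adriamycin vehicle kidneys. These groups overlapped, with a log2 fold change of 0.23 (95% interval -0.06 to 0.52, adjusted p = 0.706 by edgeR). Averaged over both treatments the difference was 0.64 and passed (adjusted p = 0.0024).

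The other 6 genes did not pass among FGF23-treated mice. Il1b was at 0.954, 1.07, 0.971 and 1.60 CPM in healthy and 0.571, 0.396, 0.571 and 1.29 CPM in Adriamycin FGF23 kidneys, on 9 to 34 counts. Only Ad16 of the Adriamycin libraries reached the healthy range, and the log2 fold change of -0.75 had an adjusted p of 0.315 (edgeR). Tnfaip3 was at 8.15, 8.72, 7.60 and 9.37 CPM against 11.3, 10.7, 9.14 and 8.87 CPM, overlapping, with a log2 fold change of 0.24 (adjusted p = 0.329 by edgeR). Of the 14 NF-kB inhibitors and feedback regulators tested, 1 was called, Nfkbia itself, and of 20 other NF-kB target genes 0 were. Of these 20, 8 had an unadjusted p under 0.05 (edgeR), as had 2030 of all 16020 genes in this comparison. Macrophage and monocyte markers summed to 174.6 to 239 CPM in healthy and 140.4 to 168.8 CPM in Adriamycin FGF23 kidneys, with 0 of 13 called and 5 of 13 at an unadjusted p under 0.05. Neutrophil markers summed to 1.56 to 3.57 CPM and 1.09 to 1.93 CPM, with 0 of 2 tested called and 1 at an unadjusted p under 0.05. Their part in the result was not tested.

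FGF23 itself was then compared with vehicle in each setting, and no gene of the 10 passed edgeR's test in any of them. In healthy kidneys of the anti-GBM experiment 0 of 9 passed, against 0% of all genes. None of the 9 had an unadjusted p under 0.05 (edgeR), against 689 of all 15859 genes. Tnfaip3 was the only gene without overlap there, at 8.59, 8.27 and 8.222 CPM with FGF23 just above the 7.46 to 8.216 CPM with vehicle, with a log2 fold change of 0.10 (95% interval -0.36 to 0.55), where 2.05% of all genes with a count lay all above and 3.29% all below. In anti-GBM kidneys 0 of 9 passed, where 0.240% of all genes did (0.233% higher, 0.00631% lower). Csf1 alone of the 9 had an unadjusted p under 0.05 (edgeR), as had 1998 of all 15859 genes. It was at 53.2, 31.3 and 32.7 CPM with FGF23 against 24.6, 25.2, 40.02 and 26.6 CPM with vehicle. These ranges overlapped, and the log2 fold change was 0.42 (SE 0.19, 95% interval 0.02 to 0.82, adjusted p = 0.379 by edgeR), and 0.13 without library NTS13. The log2 fold change of Tnf was 0.72 (95% interval -0.11 to 1.54), and that of Il1rn was 0.29 (95% interval -0.54 to 1.12), intervals that include no change as well as a doubling.
The interaction term asks whether FGF23 moved a gene differently in diseased and in healthy kidneys. It passed for 0 of 9 genes, against 0.0315% of all genes. None of the 9 had an unadjusted p under 0.05 (edgeR), against 1316 of all 15859 genes. The term was largest for Tnf, at 1.24 on the log2 scale (95% interval -0.21 to 2.69, adjusted p = 0.65 by edgeR). DESeq2 called no member in these 3 comparisons either. Neutrophil markers had a median log2 fold change of -1.40 with FGF23 in anti-GBM kidneys, with 0 of 6 called and 3 of 6 at an unadjusted p under 0.05 (edgeR). Retnlg among them was at 10 to 47 counts with vehicle and 4 to 6 with FGF23 in these kidneys. A fall of neutrophil markers that, like Retnlg, passed the count filter only through the anti-GBM vehicle libraries was favored by the filter. Macrophage and monocyte markers had a median of 0.36, with 0 of 13 called and 4 of 13 at such a p. Among all genes 1998 of 15859 had such a p. The part of these markers' cells in the values of the 9 genes was not tested.

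In the Adriamycin experiment the FGF23 values of Nfkbia had opposite signs in the 2 disease states. In healthy kidneys the FGF23 libraries (22.9 to 31.04 CPM) were all below the vehicle libraries (33.1 to 45.0 CPM), as were those of 1.14% of all genes with a count, and the log2 fold change was -0.39 (SE 0.14, unadjusted p = 0.0129 by edgeR, adjusted p = 0.688). In Adriamycin kidneys 3 of the 4 FGF23 libraries were above all vehicle libraries (39.9 to 50.9 CPM) and Ad16 was among them, and the log2 fold change was 0.42 (SE 0.14, unadjusted p = 0.00724 by edgeR, adjusted p = 0.718). The interaction term was 0.81 (SE 0.19, 95% interval 0.39 to 1.22) with an unadjusted p of 0.000755 and an adjusted p of 0.528 by edgeR, and so failed the correction over 16020 genes. With 1 library left out at a time the term ran from 0.71 to 0.93 and its adjusted p from 0.0644 (without Ad16) to 1 (without Ad14).
Counts of members called were 0 of 7 in healthy kidneys (0% of all genes), 0 of 7 in Adriamycin kidneys (0.0375% of all genes) and 0 of 7 for the interaction (0% of all genes), and 0 in each with DESeq2. Among all 16020 genes 1072, 912 and 819 had an unadjusted p under 0.05 (edgeR) in these comparisons. Of the 7 members there were 1, 2 and 1, Nfkbia each time, together with Il1b in Adriamycin kidneys at a log2 fold change of -0.76 (SE 0.31, adjusted p = 0.844 by edgeR). Il1b was at 0.983, 1.33, 1.08 and 1.25 CPM in these kidneys with vehicle, so that Ad16 again was the 1 FGF23 library within the vehicle range. Nfkb2 was the most tightly bounded gene, with 95% intervals of -0.16 to 0.16 in healthy and -0.11 to 0.22 in Adriamycin kidneys.

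**Figure D4:**
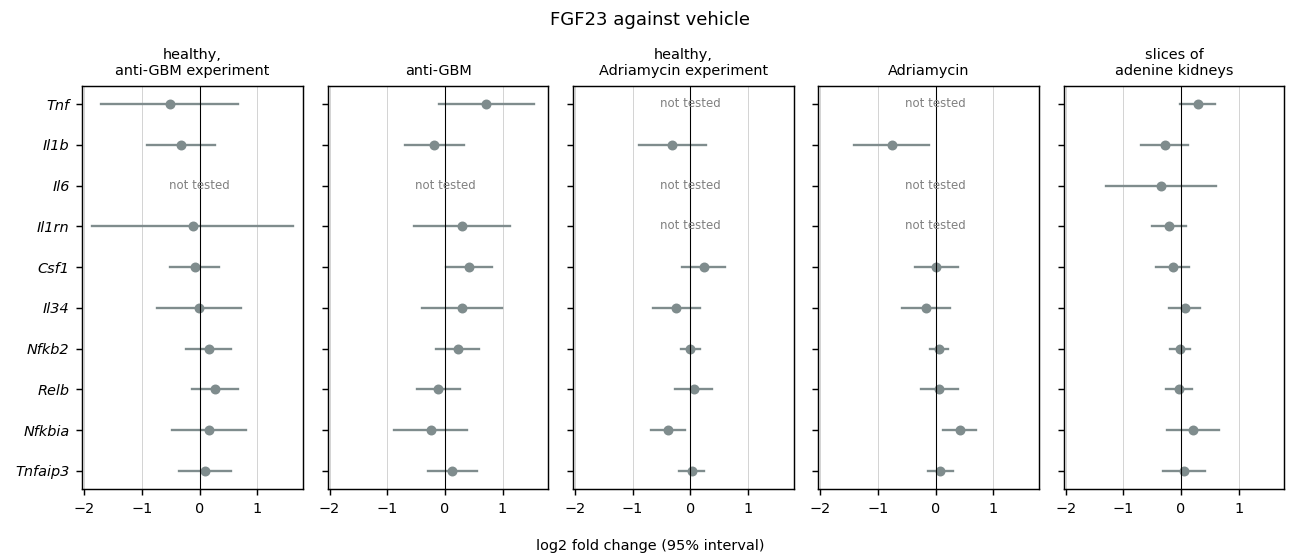
Log2 fold change (point) and 95% interval (line) of each gene for FGF23 against vehicle in healthy and anti-GBM kidneys, healthy and Adriamycin kidneys, and slices of adenine kidneys. All points are grey because no adjusted p was under 0.05 (edgeR). Nfkbia lies at -0.39 in healthy and 0.42 in Adriamycin kidneys of the same experiment.

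In the slices all 10 genes passed the count filter. All but Il34 were higher in every slice library than in any kidney library. How often this holds among all genes was not computed, so it is not read as particular to these genes. Il34 was at 87.5 CPM in the anti-GBM FGF23 library NTS13, within the range of the slices. Il6, at most 6 counts in any kidney, was counted 2098, 495, 1643 and 677 times in the 4 vehicle slices, or 156.7, 29, 144.8 and 51.2 CPM. Vehicle slices 1 and 3 were thus high and 2 and 4 low, and slices 1 and 3 were also the highest of the 4 vehicle slices for Csf1, Nfkbia and Tnfaip3. Tnf was at 12.7 to 19.8 CPM, Il1b at 33.2 to 39.9, Il1rn at 47.5 to 73.2, Csf1 at 167.5 to 252.2, Il34 at 70.3 to 97.9, Nfkbia at 228.7 to 451.7 and Tnfaip3 at 183.3 to 325.1 CPM. The least spread was in Nfkb2 at 165.5 to 171.5 CPM and Relb at 77.3 to 87.3 CPM. Per length, Il34 (42.3 CPM per kb), Csf1 (40.5), Il6 (39.3), Tnfaip3 (37.3) and Nfkb2 (36.7) followed Nfkbia with overlapping ranges. Strain, age, diet and culture differ between the slices and the kidneys, as does sex for the Adriamycin experiment, and these cannot be told apart as sources of these levels. Macrophage and monocyte markers summed to 560.6 to 938.8 CPM over the 8 slices.

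FGF23 in the slices called 0 of the 10 genes and 0% of all 15090 genes with edgeR, and DESeq2 called none of the 10. None of the 10 had an unadjusted p under 0.05 (edgeR), against 738 of all genes. The log2 fold changes ran from -0.34 (Il6) to 0.29 (Tnf), with a median of -0.02 against -0.01 for all genes. Tnf was at 19.8, 12.7, 16.9 and 15.6 CPM with vehicle and at 21.1, 19.1, 20.5 and 18.6 CPM with FGF23. Only vehicle slice 1 reached the range of the FGF23 slices, and the log2 fold change of 0.29 (95% interval -0.01 to 0.59) had an adjusted p of 0.849 (edgeR). Il6 was at 74.2, 82.8, 58.1 and 85.0 CPM with FGF23, within the wide vehicle range, with a 95% interval of -1.30 to 0.61 that is wide on both sides of 0. The intervals were narrowest for Nfkb2, at -0.18 to 0.15, and Relb, at -0.25 to 0.19.

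How alike the genes ran was described over the 38 libraries after taking off the mean of each experiment, for the 7 genes that passed the filter in all 3 experiments. These correlations share the libraries, their depth and the anti-GBM difference above, and are given without a test. Pearson's r between the 7 genes ran from 0.25 (Il1b and Nfkbia) to 0.948 (Nfkb2 and Relb) over 21 pairs. Among 13974 genes, those most like Nfkb2 were Sbno2 (r = 0.983), Anxa3 (0.965) and Lcn2 (0.962), and those most like Relb were Rhbdf2 (0.955), Nfkb2 (0.948) and Lcn2 (0.945). For Nfkbia they were Ddit4 (0.932), Tob2 (0.895) and Cebpb (0.887), none of which was on the lists of the other members. Tnfaip3 ran most like Fosl2 (0.913), Cxcl1 (0.907) and Serpinb6b (0.905). For Csf1 they were Flna (0.931), Col4a2 (0.928) and Adamts1 (0.926), for Il34 Bcl3 (0.882), Trim47 (0.871) and Cd14 (0.853), and for Il1b, with the lowest values, Bin2 (0.807), Ly86 (0.769) and Apobec1 (0.763).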

How the data were processed

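RNA of 30 mice, each from a kidney fragment (pars intermedia), and of 8 slice cultures was sequenced. The authors aligned the reads with STAR 2.7.9a to GRCm38, counted them on Ensembl genes with featureCounts 1.5.1, and deposited raw counts of 55487 genes without normalization; 0 columns were left unused. For 55141 identifiers a reference table gave the symbol. Groups came from the labels, which column names match for the slices. Column names of the anti-GBM and Adriamycin experiments give the experiment but no group or labelled replicate number, so these columns were tied to groups by the headings of the study's own result tables. Replicate libraries differed by more than sampling noise (smallest chi-square per degree of freedom 2.023). The smallest values were between slices, 2.023 for 2F and 4F and 2.911 for 1V and 3V. Between mice of a group the smallest was 5.977 (Ad2 and Ad4).

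Counts were fitted per experiment with all its groups: TMM, filterByExpr (minimum count 10), edgeR 4.0.16 quasi-likelihood test (R 4.3.3), Benjamini-Hochberg adjustment over all genes tested (15859, 16020 and 15090), cutoff 0.05. This replaces the DESeq2 of the study's methods, which was run as an alternative (version 1.42.0). The test was tried on simulated data. SE is the log2 fold change over the root of F, and intervals are 95%. A count of 3 per library was taken as the floor; floors cover counting error only. Within a group the samples are separate mice, or slice cultures whose animals the labels do not name, so that p-values for slices may measure technical spread only. For the slices the study states 4 biologically independent replicates per group.

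The 10 genes, the lists and the rule for named genes (all 10 members; from each list up to 3 called genes with the smallest p per comparison; the 3 genes most alike) were chosen with earlier results of these data known. Alternatives were RLE, other count filters, a log2 fold cutoff of 1, only the groups compared, a robust fit, adjustment over all comparisons, disease averaged over treatments, a replicate block, and each library left out. Exon lengths and coordinates are of GENCODE M21 on GRCm38, not of the annotation the authors counted on, and promoters of RefSeq. Sequences of Il34 and Relb were not used here.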

Additional observations from a re-analysis of the deposited data

Results flagged for a closer look

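Over 72 sets of 4 libraries (a gene in a group, above 3 counts in at least 1 library), 2 values stood far from the other 3 of their group by Dixon's 95% limit, where chance gives about 1 in 20; groups of 3 libraries were not looked at. Csf1 in anti-GBM vehicle library NTS7 was at 40 CPM, and the other 3 were at 24.6 to 26.6 CPM. Without NTS7 the log2 fold change of Csf1 between anti-GBM and healthy vehicle kidneys went from 1.05 to 0.85 and still passed. Nfkbia in healthy FGF23 library Ad11 of the Adriamycin experiment was at 22.9 CPM, and the other 3 were at 30 to 31 CPM. Without Ad11 the log2 fold change of Nfkbia between Adriamycin and healthy FGF23 kidneys was 0.95, and it still passed. No interaction between FGF23 and disease passed for any of the genes tested.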

How the results depend on the processing

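Each of the 11 counts of members called was recomputed, giving 245 alternative values, of which 244 were equal to the main count or within 1.5 times of it. The exception was Adriamycin against healthy with vehicle, where averaging disease over both treatments called 1 gene, Nfkbia, in place of 0. With 1 library left out the count ran from 8 to 9 in anti-GBM against healthy kidneys, both with vehicle and with FGF23, and did not move in the other comparisons. Of 1961 alternative values of the 90 log2 fold changes, 4 gained the cutoff (Tnf in 3 and Nfkbia in 1) and 1 lost it (Nfkbia without NTS16). None that passed in either fit changed sign, whereas 74 values that passed in neither did, 68 of them with 1 library left out, none of them larger than 0.305 in size.

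Whether the replicate numbers pair slices with and without FGF23 is not given by the labels, and the data were mixed. Deviations of same-numbered slices correlated at 0.107, 0.105, -0.105 and 0.112 over 15090 genes, so that 3 of 4 were over 0.1, and 1F correlated best with 3V (0.124). With a replicate block 0 of the 10 genes were called, as without it. Tnf and Il34 were higher with FGF23 in 4 of 4 same-numbered pairs, with log2 fold changes of 0.30 and 0.07 under the block (adjusted p = 0.809 and 0.936 by edgeR). No paired analysis was possible for the other experiments because their columns carry no labelled replicate number and their mice are different animals. Depth limits Tnf, Il6 and Il1rn in healthy and Adriamycin kidneys, which were at 0 to 9 counts per library.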
